A study of Sedum plumbizincicola and Sedum alfredii with 13 samples.

Results

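The transcripts described here are those whose level was higher with cadmium (Cd) in the shoot of Sedum alfredii plants labelled as non-hyperaccumulating. They were followed through S. alfredii roots and through both organs of the hyperaccumulator Sedum plumbizincicola. They number 120 of 66584 transcript clusters (assembled sequences grouped as 1 gene, here called transcripts). A transcript was included when its normalised count in the Cd-treated S. alfredii shoot was at least 50 and at least 4-fold that of the untreated shoot, with 5 added to both counts. It also needed at least 10 counts summed over the 8 S. plumbizincicola libraries. A normalised count is the deposited expected count divided by a median-of-ratios size factor, so it compares libraries for 1 transcript but not 1 transcript with another.

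Both species were exposed to CdCl2 at 10 µM, or kept without it (0 µM), and root and shoot RNA was taken after 3 days. The S. alfredii plants are labelled as non-hyperaccumulating (NHE). S. alfredii gave 1 Illumina library for each organ and dose (4 libraries), and S. plumbizincicola gave 2, A and B (8 libraries). Apart from NHE the labels give no genotype, and they give no further treatment of either group and no number of plants per library. The p-values thus measure the spread between these libraries, which may be technical. Total counts ranged from 3434925 to 4670429 in S. alfredii and from 1260160 to 2403858 in S. plumbizincicola. Intervals on S. alfredii counts cover counting error only, because each organ and dose has 1 library. PCR copies may be read more than once, so even the counting error may be larger than these intervals show. The cluster numbers are common to the files of both species, and a difference between species in how well reads align to them was not tested. In these bulk samples fewer cells of a type and less RNA per cell cannot be told apart.

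Cadmium is a metal that most plants do not use. It binds thiol groups and displaces zinc, iron and other metals from proteins. Plants are known to answer it by making thiol-rich peptides (phytochelatins) from glutathione, by moving the bound metal into vacuoles, and by raising antioxidant and protein-repair enzymes. Hyperaccumulators carry the metal from root to shoot and store it there, and genes for metal transport are known to be high in them without any added metal. The files carry component numbers and no gene names, so none of these pathways could be looked up among the 120, and transcripts are named by their number only. For the same reason at most 2 higher and 2 lower transcripts are named for each comparison by a common rule, and any other is said to be chosen after its values were seen.

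Library identity was checked against the organs and the species. The Spearman correlation of levels lay between 0.914 and 0.972 for libraries of the same species and organ and reached at most 0.679 for any others. Root RNA in the S. alfredii shoots was traced with 32 transcripts that averaged at least 100 normalised counts in S. plumbizincicola roots and had 0 counts in its shoots. Of these, 24 were detected in the untreated and 21 in the Cd-treated S. alfredii root, where their summed normalised counts were 5828 and 2636. In the untreated S. alfredii shoot the sum was 13.0 with 6 detected, and in the Cd-treated shoot it was 10.2 with 3 detected. The summed signal of these transcripts was thus no higher in the Cd-treated shoot than in the untreated shoot, and none of the 32 is among the 120. In the S. alfredii root the same sum was itself lower with Cd (2636 against 5828). The shoot sums therefore cannot show whether the amount of root RNA differed between the shoots.

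The values that chose the transcripts are given as a description, without a test. In the S. alfredii shoot the median normalised count of the 120 was 43.8 without Cd and 336.8 with Cd. The ratios ran from 4.002 to 496 with a median of 5.69, and 35 of the 120 were at least 8-fold higher. On the same scale 191 of 18679 transcripts with at least 10 counts in 1 of the shoot libraries were at least 4-fold higher, which is 1.02%. At the threshold the lowest ratios kept were 4.002 and 4.055 and the highest left out were 3.984 and 3.981. The lowest Cd-treated levels kept were 53.67 and 54.59 normalised counts, and the highest left out were 49.96 and 49.04.

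A few transcripts carried most of this signal. The 120 took 0.823% of the TPM (a level scaled by transcript length and by the library total) of the untreated S. alfredii shoot and 8.20% of that of the Cd-treated shoot, an order fixed by the choice. In TPM 1 of them stood among the 100 highest transcripts of the untreated shoot, and 17 did with Cd. The highest was c33366_g3, at 3694 TPM without Cd and 17534 TPM with it. With c45677_g1, c33366_g2 and c34004_g1 it made up 56.8% of the summed TPM of the 120 in the Cd-treated shoot. Of these 4, c33366_g3 and c33366_g2 belong to 1 component and may share reads, and c45677_g1 and c34004_g1 are named here after their values were seen.

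**Figure D1:**
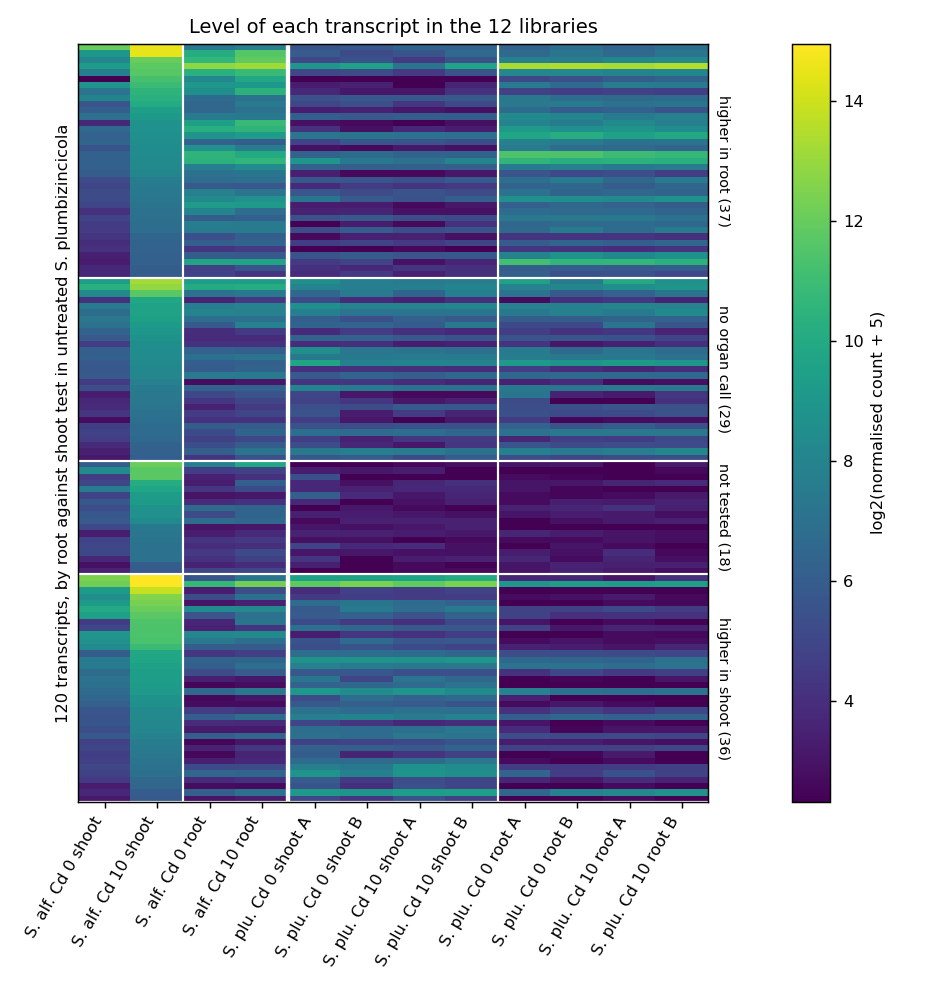
Level of each of the 120 transcripts (rows) in the 12 libraries (columns) as log2(normalised count + 5), grouped by the test of root against shoot in untreated S. plumbizincicola: 37 higher in root, 29 without a call, 18 not tested and 36 higher in shoot. The Cd-treated S. alfredii shoot is the brightest column because it chose the rows, and within S. plumbizincicola the columns of 1 organ look alike at both doses.

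The highest ratio in the S. alfredii shoot was that of c31686_g1, with 0 counts without Cd and 2674 counts with it. With 3 counts set for the untreated library this is 1016-fold higher, for these libraries, and the lower end of its exact counting interval is 826-fold. In S. alfredii roots the transcript was present without Cd, at 279 normalised counts, and stood at 924 with Cd. In S. plumbizincicola it had 0 counts in all 4 shoot libraries, 28.3 and 37.0 normalised counts in the untreated roots and 60.3 and 79.0 in the Cd-treated roots. Both treated root libraries thus lay above both untreated ones, with a log2 fold change of 1.07 (SE 0.33) that did not pass edgeR's quasi-likelihood test (adjusted p = 0.192).

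The next highest ratio belonged to c35536_g1, with 24 counts in the untreated and 3601 in the Cd-treated S. alfredii shoot (171-fold; its exact counting interval runs from 115 to 267). In the S. alfredii roots it had 11 and 26 counts. In S. plumbizincicola it was present almost only in untreated shoot library A, at 38.0 normalised counts, with 0 in the other 3 shoot libraries and at most 1 count in any root library.

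The highest normalised counts in the Cd-treated S. alfredii shoot were those of c33366_g3 and c38523_g1. For c33366_g3 they were 5622 and 31714 in the untreated and treated shoot and 44.2 and 148 in the untreated and treated root. In S. plumbizincicola this transcript also stood high in shoots, at 726 and 714 without Cd and 791 and 1062 with it, and low in roots, at 2.87 to 11.3. For c38523_g1 the S. alfredii values were 4774 and 31375 in shoots and 1684 and 4935 in roots. In S. plumbizincicola c38523_g1 was at 3445 and 5365 in untreated and 3708 and 5382 in treated shoots, so its dose groups overlapped there. Its 95% interval for the log2 fold change with Cd in S. plumbizincicola shoots, from -0.56 to 0.60 (edgeR fit), lies below the 4-fold line that chose it in S. alfredii.

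The first comparison outside the choosing libraries asked whether the same transcripts were higher with Cd in S. alfredii roots. This rests on 1 library per dose and has no test. Of the 120, 111 had at least 10 counts in 1 of the root libraries. Of these, 19 (17.1%) were at least 2-fold higher with Cd, against 1.91% of the 23652 transcripts measured in the same way. In the other direction 2 (1.8%) were at least 2-fold lower, against 2.27% of all. At least 4-fold higher were 4 of the 111 (3.6%), against 0.144% of all, and at least 4-fold lower were 0, against 0.186%. The median log2 ratio was 0.33 over the 111 and 0.04 over all, and 84 of the 111 were above 0 (75.7%, against 54.7% of all). Roots and shoots of 1 dose may come from the same plants, which the labels do not say.

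The 19 transcripts started from levels of 1.13 to 1684 normalised counts in the untreated S. alfredii root, with a median of 45.3, and reached 7.28 to 4935 with Cd, with a median of 148. Their median ratio in the shoot, which chose them, was 14.81, against 5.44 for the other measured transcripts of the 120. Across the 111 the log2 ratios in shoot and root had a Spearman correlation of 0.33, over transcripts that share the same 4 libraries and are not independent replicates.

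The 2 highest ratios in S. alfredii roots among transcripts with at least 100 counts were those of c35538_g1 and c35058_g3. For c35538_g1 the counts were 14 untreated and 300 treated (18.4-fold, with 10.8 to 34.0 as its exact counting interval), and in the shoot 22 and 3070. For c35058_g3 they were 9 and 132 in the root (12.6-fold, 6.43 to 28.1), and 34 and 1232 in the shoot. In both organs the higher value was the Cd-treated one for each of these. In the other direction stood c32635_g1, with 454 and 228 root counts (0.431-fold, 0.366 to 0.506), and c32635_g2, with 732 and 405 (0.474-fold, 0.419 to 0.536). These belong to 1 component and may share reads, and both had been chosen as higher in the shoot, where c32635_g1 had 15 and 137 counts. They were thus lower with Cd in the root library and higher in the shoot library of the same species.

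**Figure D2:**
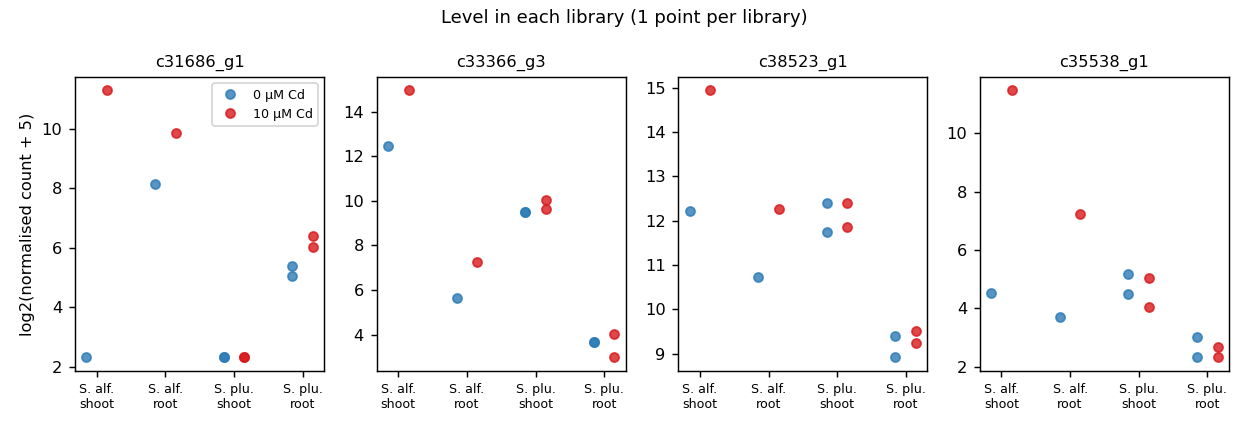
Level of 4 transcripts as log2(normalised count + 5), 1 point per library, with blue for 0 and red for 10 µM Cd; each panel has its own vertical scale. In S. alfredii the red point is above the blue one in both organs of each panel, and in S. plumbizincicola the doses are apart for c31686_g1 in roots and for c33366_g3 in shoots and overlap in the others, with c31686_g1 at 0 counts in all 4 shoots.

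How far single libraries of 1 group can differ was read from S. plumbizincicola roots, where replicates exist. Of the transcripts among the 120 with at least 10 counts in 1 of the pair, 7 of 83 (8.43%) were at least 2-fold higher in untreated root library A than in B, against 1.94% of all, and 2 (2.41%) at least 2-fold lower, against 4.11%. At least 4-fold higher in untreated A were 3 of 83 (3.61%, against 0.318%), a share like that between doses in S. alfredii roots. With Cd the 2-fold counts were 2 of 79 (2.53%, against 1.57%) and 3 (3.80%, against 4.27%). The 17.1% at least 2-fold higher between doses in S. alfredii roots is above each of these shares between replicates, which come from the other species and from shallower libraries. It is below the 20.4% (19 of 93) found between the 2 untreated S. plumbizincicola shoot replicates, described further on, so a share of this size also occurred within 1 group.

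**Figure D3:**
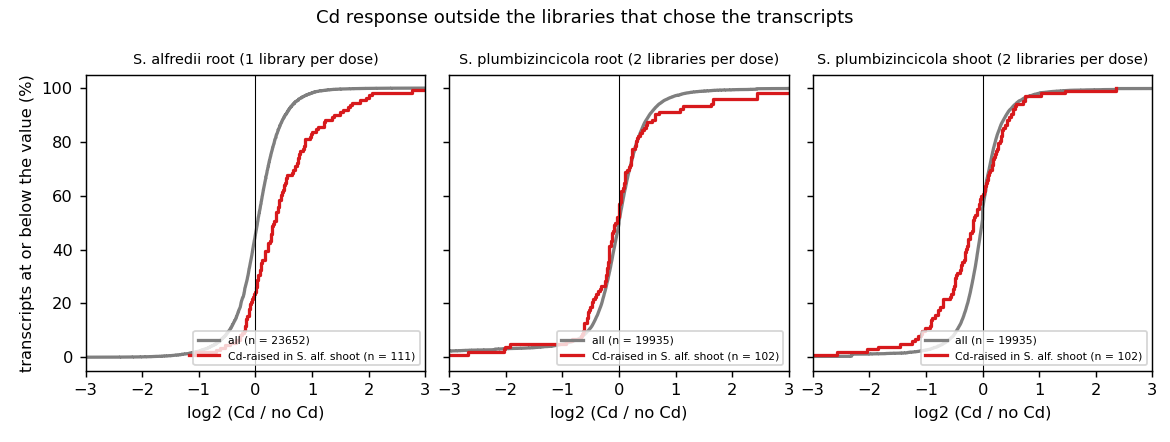
Cumulative share of transcripts (vertical axis, %) by log2 ratio of Cd-treated to untreated level (horizontal axis), for the 120 Cd-raised transcripts where measured (red) and all measured transcripts (grey). In S. alfredii roots the red curve lies to the right of the grey one over most of its range (medians 0.33 and 0.04), in S. plumbizincicola roots the curves nearly coincide, and in its shoots the red curve lies to the left below the median.

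In S. plumbizincicola roots none of these transcripts passed the test for a Cd response. The edgeR fit of the 8 libraries tested 102 of the 120 (the other 18 had too few counts) and called 0 of them, against 2.08% of all 19935 tested (0.105% higher and 1.98% lower with Cd). At an unadjusted p under 0.05 were 9 of the 102 (8.82%, against 6.68% of all). DESeq2 called 0 of 115, against 0.559% of all 23808. With limma on log2(TPM + 1) 0 of 102 were called, against 2.69% of all 19935. In the edgeR fit the log2 fold changes of the 102 had a median of -0.06 and quartiles of -0.34 and 0.23. Over all the median was 0.0 with quartiles of -0.24 and 0.25. On the log2(TPM + 1) scale the 2 medians were 0.06 and 0.16, so the sign of the first depends on the scale. Both treated libraries lay above both untreated ones for 11 (10.8%, against 16.3% of all) and below for 14 (13.7%, against 18.0%).

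The intervals bound how large a rise could have been. For 83 of the 100 transcripts with an interval in roots, the upper end of the 95% interval lay below a 4-fold rise (83.0%, against 93.5% of all). For the other 17 the upper end reached 4-fold or more, so a rise of that size is not bounded there. The smallest adjusted p was that of c43066_g1, chosen here after its values were seen, at 239 and 274 normalised counts in untreated and 376 and 462 in treated S. plumbizincicola roots. Its log2 fold change was 0.71 (SE 0.20, adjusted p = 0.113, edgeR), with the doses apart. Its S. alfredii root libraries stood at 1056 and 1125 and its shoots at 1295 and 7660.

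The extreme fitted values in S. plumbizincicola roots rested on a few reads. The highest belonged to c35276_g2 and c32878_g1, each with 0 counts in both untreated roots and 1 count in each treated root, at or under the limit of 3 counts, so no fold is given. The lowest belonged to c34873_g1, with 4 and 0 counts untreated and 0 in both treated roots, and to c38981_g1. For c38981_g1 the counts were 91 and 9 untreated and 3 and 14 treated, so its groups overlapped and 1 untreated library set its value. Of the 19 transcripts at least 2-fold higher in the S. alfredii root, 16 were tested in S. plumbizincicola roots, where 10 had a positive and 5 a negative log2 fold change (median 0.15, range -0.63 to 1.66) and none was called.

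Whether the Cd response of roots differed between the species was tested with a species-by-Cd term in an edgeR fit of the 6 root libraries. The single S. alfredii library per dose was assumed to vary like the S. plumbizincicola replicates. The fit called 0 of the 98 of the 120 that it tested, against 0.0138% of all 21769, with 15 at an unadjusted p under 0.05 (15.3%, against 2.77% of all). The difference had a median of -0.46 over the 98, that is, a more positive Cd response in S. alfredii, and -0.03 over all. It was below 0 for 69 of the 98 and above 0 for 29 (29.6%, against 47.9% of all).

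In S. plumbizincicola shoots, the organ that chose the transcripts in the other species, none passed the test either. The edgeR test called 0 of 102, and 0% of all 19935. At an unadjusted p under 0.05 were 7 of the 102 (6.86%, against 2.36% of all). DESeq2 (120 tested) and limma on log2(TPM + 1) (102 tested) called 0, and 0% of all. In the edgeR fit the log2 fold changes of the 102 had a median of -0.17 (quartiles -0.52 and 0.21). Over all it was -0.01 (-0.21 and 0.17). Of the 102, 40 were above 0 (39.2%, against 44.9% of all) and 61 below. Both treated libraries lay below both untreated ones for 22 (21.6%, against 13.0% of all) and above for 13 (12.7%, against 14.8%). For 92 of the 101 transcripts with an interval, its upper end lay below a 4-fold rise (91.1%, against 94.3% of all), and for 67 below a 2-fold rise.

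Among the named transcripts the counts in S. plumbizincicola shoots were small. The highest fitted values were those of c36814_g1, with 0 and 0 counts untreated and 1 and 0 treated, for which no fold is given, and of c35785_g1, with 0 and 4 counts untreated and 1 and 10 treated. The lowest were those of c38981_g1, with 23 and 3 counts untreated and 1 in each treated library, and of c32076_g1, with 17 and 3 untreated and 0 and 3 treated. In normalised counts the dose groups overlapped for c35785_g1 and c32076_g1 and were apart for c38981_g1, and library A held most of the untreated counts of both c38981_g1 and c32076_g1.

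Clearer differences in S. plumbizincicola shoots, chosen after their values were seen, were those of c34875_g1 and c39254_g1. For c34875_g1 the normalised counts were 210 and 166 untreated and 445 and 336 treated (log2 fold change 1.03, SE 0.21, adjusted p = 0.942, unadjusted p = 0.000173, edgeR). In the S. alfredii shoot c34875_g1 stood at 26.8 and 127. For c39254_g1 they were 17.3 and 24.8 untreated and 2.54 and 7.59 treated, the opposite order to the S. alfredii shoot at 4.87 and 67.5. Its log2 fold change in S. plumbizincicola shoots was -2.04 (SE 0.52, adjusted p = 1.0, unadjusted p = 0.00147, edgeR). This transcript is abundant in roots. It had 2291 and 1607 normalised counts in untreated and 1635 and 1366 in treated S. plumbizincicola roots, where the doses overlapped, and 814 and 830 in the untreated and treated S. alfredii root.

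The direct test of root against shoot Cd responses in S. plumbizincicola called 0 of the 102 and 0% of all (edgeR interaction contrast, 4 of the 102 and 528 of all 19935 at an unadjusted p under 0.05). DESeq2 called 0 of the 120, against 0.00216% of all 46201. With limma on log2(TPM + 1) 0 of the 102 were called, against 1.67% of all 19935. For these transcripts a response in 1 organ was thus not shown to differ from that in the other.

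The transcripts did differ between replicate shoots of S. plumbizincicola. In untreated shoots 19 of the 93 with at least 10 counts in 1 of the pair were at least 2-fold higher in library A than in B (20.4%, against 3.41% of all), and 4 were at least 2-fold lower (4.30%, against 1.90%). At least 4-fold higher in A were 5 (5.38%, against 0.252%). For all 19, both treated shoot libraries also lay below untreated library A. These 19 were picked for a high library A, so nothing is read from that order. With Cd the order was the other way for fewer transcripts, 8 of 80 at least 2-fold lower in A (10.0%, against 1.64%) and 0 at least 2-fold higher (against 1.68%).

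The highest ratio of A to B was that of c35536_g1, given above. At a higher level c36907_g1, the transcript with the highest species difference below, stood at 880 in untreated shoot A, 229 in untreated B, 258 in treated A and 254 in treated B. The untreated library A is thus apart from the other 3 for it. The dose comparison within the A pair, which holds this library, and within the B pair gave unlike counts: 18 of 91 transcripts (19.8%, against 1.55% of all) were at least 2-fold lower with Cd in the A pair, and 1 of 85 (1.18%, against 0.821%) in the B pair. The edgeR median over the 120 where tested was -0.09 without untreated shoot library A, -0.12 without untreated B, -0.05 without treated A and -0.34 without treated B. Each stayed below 0, but its size depended on which library was left out. Without untreated B, with 1 untreated shoot library left, the log2 fold changes were -1.81 for c36907_g1 and -3.51 for c42801_g2. These were chosen after their values were seen.

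The spread between replicates, estimated over the 4 S. plumbizincicola groups together, was also wider for these transcripts. The biological coefficient of variation from the edgeR fit had a median of 0.186 (interquartile range 0.161 to 0.266) over the 102 and 0.170 (0.150 to 0.206) over all. The median was above that of all in each of 5 equal classes of average level, from 0.264 against 0.219 in the lowest (18 of the 102) to 0.169 against 0.154 in the highest (31 of the 102). This shared estimate does not show a wider spread in each group. In Cd-treated roots the log2 ratios of A to B had quartiles of -0.37 and 0.25, against -0.35 and 0.26 over all. In Cd-treated shoots they were -0.54 and 0.18, against -0.25 and 0.27.

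**Figure D4:**
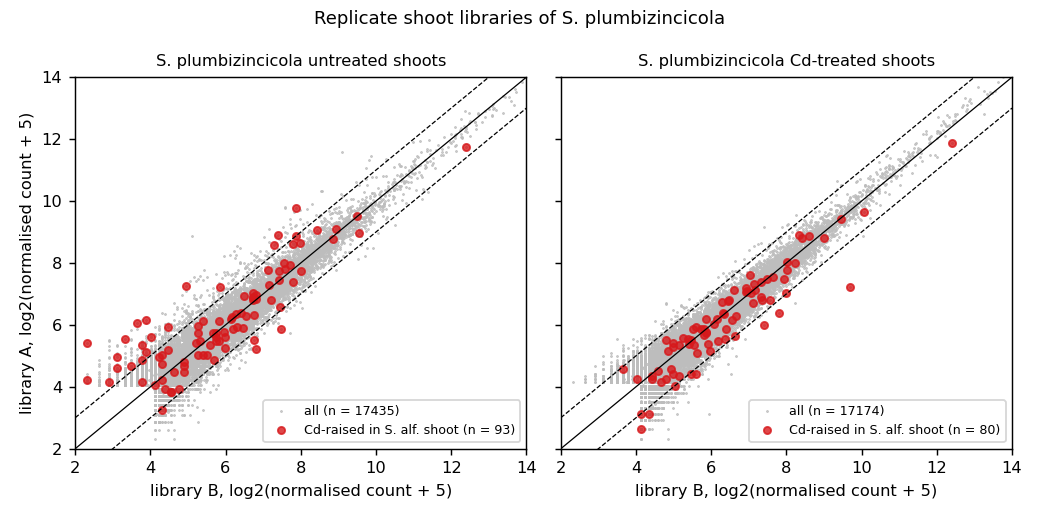
Replicate libraries A (vertical) and B (horizontal) of S. plumbizincicola shoots without Cd (left) and with Cd (right), as log2(normalised count + 5); red points are the Cd-raised transcripts, grey points all others with at least 10 counts in 1 library, and dashed lines mark 2-fold either way on this scale. In untreated shoots 19 red points lie at or above the upper dashed line and 4 at or below the lower one; with Cd 0 and 8 do.

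The transcripts were marked by organ in S. plumbizincicola more often than others. Without Cd 37 of the 102 were higher in root than in shoot (36.3%, against 27.2% of all) and 36 higher in shoot (35.3%, against 25.4%), by the same edgeR fit. Together that is 71.6%, against 52.6% of all. In the Cd-treated libraries, a contrast added after seeing the data, 39 were higher in root (38.2%, against 24.7%) and 33 in shoot (32.4%, against 23.4%), together 70.6% against 48.0%. The sizes differed as well: the median absolute log2 fold change between untreated root and shoot was 2.20 over the 102 and 0.92 over all. The 102 stood at a median average level of 4.90 log2 CPM (counts scaled to the library total), against 4.42 for all tested, and the part of depth in the counts of calls was not tested.

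Among the root-higher transcripts c31686_g1 had the largest difference, with 0 counts in each shoot library, and c37284_g1 the next. For c37284_g1 the normalised counts were 237 and 176 in untreated S. plumbizincicola roots and 2.30 and 1.24 in untreated shoots (log2 fold change 6.78, SE 0.49, adjusted p = 2.84e-08, edgeR). In S. alfredii c37284_g1 stood at 729 and 1861 in the untreated and treated root and at 8.12 and 424 in the shoot, so even the treated shoot was below both roots. Among the shoot-higher transcripts c32878_g1 had 0 counts in both untreated roots and 106 and 144 normalised counts in untreated shoots (adjusted p = 3.59e-08). For c26754_g1 the untreated roots held 0 counts and the untreated shoots 73.7 and 89.1 normalised counts (adjusted p = 2.78e-07).

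The organ with the higher level was mostly the same in the other species, as it was for transcripts at large. Of the 37 root-higher transcripts of S. plumbizincicola, 34 were also higher in the untreated root than in the untreated shoot of S. alfredii, and of the 36 shoot-higher ones 5 were. Among those with at least 10 counts in an untreated S. alfredii library the shares were 91.9% of 37 and 14.7% of 34, against 83.9% and 15.7% over all transcripts called in the same way. The S. alfredii values here are single libraries, and its untreated shoot entered the choice as the lower side of the ratio. Over the 102 the log2 values of root against shoot in the 2 species had a Spearman correlation of 0.77, across transcripts that share libraries. With the same 10-count minimum it was 0.77 over 100 of them and 0.65 over all 16288.

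A rise in the S. alfredii shoot was fixed by the choice for both classes, so the shoot values are given as a description. The root-higher class went from a median of 42.2 to 316 normalised counts in the shoot, against 212 and 188 in the untreated and treated root. The shoot-higher class went from 64.5 to 583 in the shoot, against 17.0 and 33.3 in the root. At least 2-fold higher in the S. alfredii root were 6 of the 37 and 7 of the 36, and 3 of the 29 without an organ call. Over transcripts of any class the share was 1.91% of the 23652 with at least 10 counts in a root library. The class sizes had no such minimum. In 103 of the 120 the treated shoot was the highest of the 4 S. alfredii libraries, and in the other 17 a root library stood above it. Of those 17, all were tested in S. plumbizincicola, where 15 were called higher in root (88.2%) and 1 higher in shoot (5.88%). Over all 3115 tested transcripts that met the level of 50 and also had a root library at or above the treated shoot, the shares were 41.3% and 10.2%. The 17 were also chosen for a low untreated shoot, so nothing is read from this gap.

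**Figure D5:**
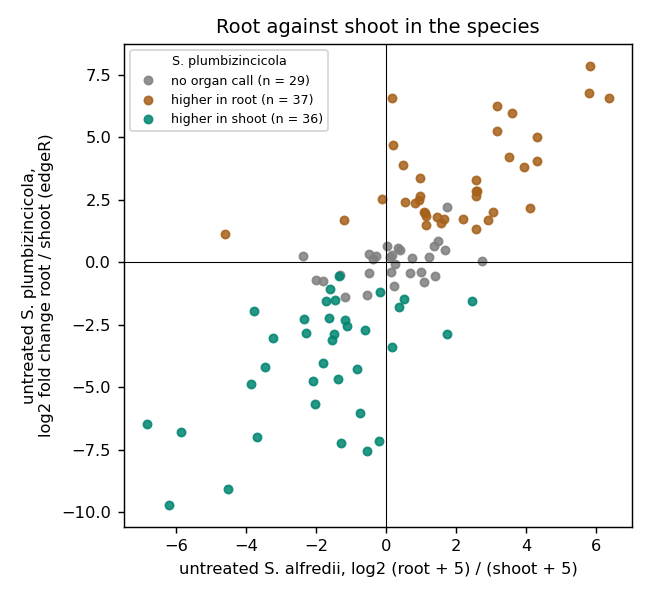
Root against shoot without Cd for the 102 tested transcripts, in S. alfredii (horizontal, log2 ratio of single libraries with 5 added) and S. plumbizincicola (vertical, edgeR log2 fold change of 2 against 2 libraries); brown marks calls higher in root, green higher in shoot and grey no call. Of the 37 brown points 34 lie to the right of 0, and of the 36 green points 31 lie at or to the left of it.

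The species were compared in roots only, since the S. alfredii shoots chose the transcripts. An edgeR fit of the 6 root libraries had terms for species and dose. It allowed a single shift with Cd, shared by S. alfredii and S. plumbizincicola. The S. alfredii root libraries, 1 for each dose, thus stood in as replicates of that species. The species-by-Cd fit above gave a median difference of -0.46 with 0 called, so a shared shift may not hold for each transcript. In the fit with the shared shift 98 of the 120 were tested. Of these 43 were higher in S. alfredii (43.9%, against 35.1% of all 21769) and 22 higher in S. plumbizincicola (22.4%, against 34.6%), together 66.3% against 69.7%. The median log2 ratio of S. plumbizincicola to S. alfredii was -0.54 over the 98 and 0.01 over all. The size of the tilt depended on the filter. With at least 10 counts in every root library 67 were tested, and 60.3% of all 12149 were called. Of the 67, 25 were higher in S. alfredii and 21 in S. plumbizincicola, with a median of -0.19 (0.009 over all). In the same order the counts were 48 and 21 of 117 with DESeq2 (53.7% of all called). They were 36 and 13 of 98 with limma on log2(TPM + 1) (55.7%) and 56 and 23 of 120 without a filter (43.8%). The choice asked for a level of 50 in an S. alfredii library but only 10 counts summed over S. plumbizincicola, where 36 of the 120 had under 100. How far the tilt in roots follows from this choice was not tested. As said above, a species difference in alignment was not tested.

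The largest differences toward S. alfredii were those of c35276_g2, with 499 and 658 counts in its roots and 0, 0, 1 and 1 in the S. plumbizincicola roots, and c33366_g2, with 379 and 1873 counts against 2, 5, 0 and 4. Their log2 ratios were -8.74 (SE 0.36, adjusted p = 1.32e-09) and -7.19 (SE 0.41, adjusted p = 1.65e-07, edgeR). Toward S. plumbizincicola c36907_g1 led, with 356 and 602 counts in untreated and 409 and 444 in treated roots against 114 and 143 in S. alfredii. Its log2 ratio was 3.04 (SE 0.20, adjusted p = 3.42e-08). It was followed by c44127_g1 with 157, 585, 207 and 357 counts against 106 and 109 (log2 ratio 2.70, SE 0.26, adjusted p = 1.88e-06). For all 4 transcripts the normalised values of the species did not overlap. The adjusted p-values rest on the shared Cd shift described above, with 1 S. alfredii library per dose.

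As a description of shoots, the untreated S. plumbizincicola mean was above the untreated S. alfredii library for 56 of the 120 and above the Cd-treated S. alfredii library for 8. All 4 S. plumbizincicola shoot libraries lay below the Cd-treated S. alfredii shoot for 110. For 74 of them the gap was at least 4-fold. These orders follow in part from the choice of high treated and low untreated S. alfredii values and were not tested.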

How the data were processed

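The data are 12 Illumina RNA-seq libraries; a 454 library of pooled S. plumbizincicola organs was not analysed here. Per the file headers the authors deposited, for each transcript cluster, an expected count, a TPM and an FPKM; FastQC, Bowtie and RSEM stand in the submitters' processing notes without versions, and assembly and trimming are not given in the sources used here. RSEM shares a read among the sequences it could come from, so counts of similar transcripts are uncertain. The deposited expected counts were rounded for tests. The deposited TPM entered levels per length and a limma alternative, and the deposited FPKM was not used. Lengths are the authors' isoform-weighted values in bases.

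Size factors used the 10144 clusters with at least 10 counts in all 12 libraries. edgeR 4.0.16 (R 4.3.3) gave the tests (TMM, filterByExpr, robust quasi-likelihood F-test, two-sided, Benjamini-Hochberg over all tested clusters, threshold 0.05) with 4 residual degrees of freedom for the 8 S. plumbizincicola libraries, 3 for the 6 root libraries and 2 with the species-by-Cd term. SE is the log2 fold change over the root of F; intervals are 95%. Alternatives used DESeq2 1.42.0 and limma 3.58.1. Exact counting intervals are Clopper-Pearson. Zero counts are bounded with 3 counts per library. The transcripts and tests were chosen with earlier results of these data known. Named transcripts have the 2 highest and 2 lowest values per comparison among those whose average log2 CPM reached 1 or more, or, for S. alfredii ratios, at least 100 counts; for the S. alfredii shoot, the 2 highest ratios and levels. No gene names matched, so lists of metal or stress genes and cell type markers were not used.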

Additional observations from a re-analysis of the deposited data

How the results depend on the processing

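Counts of called transcripts among the 120 were mostly within 1.5 times under other settings. For Cd in S. plumbizincicola roots a replicate block was an exception (1 of 102, c43066_g1, against 2.59% of all 19935). No filter on low counts was another (2 of 120, c41741_g2 and c44561_g1, against 1.55% of all 46201). Leaving out untreated root library B also moved the count, with 1 library left in that group. The log2 fold changes were then 2.02 for c44561_g1 and -3.75 for c38981_g1. For Cd in shoots a replicate block was an exception (1 of 102, c34875_g1, against 0.0451% of all 19935). With no filter 4 of 120 were called, against 0.0476% of all 46201. Of these c34875_g1 was higher and c33599_g1, c35536_g1 and c42801_g2 were lower with Cd. Leaving out untreated shoot library B also moved the count, with 1 library left in that group. The log2 fold changes were then -1.81 for c36907_g1 and -3.51 for c42801_g2. These are named because the counts are small. Root against shoot gave 34 calls of 50 tested when every library needed at least 10 counts, against 46.8% of all 11458. The cause of the lower count was not tested further. The count at least 2-fold higher in S. alfredii roots was 4 at 4-fold, and the 120 became 35 at 8-fold and 187 at 3-fold. The letters A and B are not said to mark shared plants: their deviations correlated by 0.363 between root doses and 0.25 between shoot doses, and the block changed no other call count by over 1.5 times; it was not run for the root fits that include S. alfredii, which has 1 library per group. On the TPM scale the median of all transcripts was 0.16 for Cd in roots, 0.18 for root against shoot and -0.13 for species, against 0.0, 0.08 and 0.01 in edgeR; the median of the 120 where tested for Cd in roots was then 0.06, still below that of all. With 1 library per dose no S. alfredii dose comparison has a replicate check, and 18 of the 120 had too few S. plumbizincicola counts to be tested.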

Other observations

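Among the components, 6 gave 2 transcripts each, so the 120 stand for 114 components. In c33366, c33366_g2 went from 60.9 to 4339 normalised counts in the S. alfredii shoot and had at most 2.53 in any S. plumbizincicola shoot, while c33366_g3 went from 5622 to 31714 and had 714 to 1062 there. In c34004, c34004_g1 was a shoot transcript of S. alfredii (584 and 14810 normalised counts, against 5.10 and 34.0 in roots) and c34004_g3 a root transcript (604 and 558 in roots, against 26.0 and 138 in shoots). Members of 1 component may share reads, so these levels are uncertain.

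The median isoform-weighted length of the 120 was 1110 bases (interquartile range 800 to 1539) against 1342 (933 to 1875) for the 8584 clusters that met the level and the S. plumbizincicola minimum, and 9.17% had 1 isoform against 7.6%. A further 40 clusters met the level and the 4-fold ratio with fewer than 10 S. plumbizincicola counts, 23 of them with 0. They took 0.0824% of the counts of the untreated and 2.35% of those of the Cd-treated S. alfredii shoot, and their median ratio was 12.47.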
